A study of Mus musculus with 12 samples.

Results

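The genes described here encode the proteins of the cytosolic ribosome. They were chosen by name, as the genes whose symbol has the form of a ribosomal protein gene of the small subunit (Rps), the large subunit (Rpl), the P-stalk of the large subunit (Rplp0, Rplp1 and Rplp2) or Rpsa. Of 85 names with that form, Rps6kl1, a kinase-related gene, and 3 annotated pseudogenes (Rps3a2, Rps3a3 and Rps4l) were left out. This left 81 of the 17915 genes named in the deposited tables: 31 for the small subunit, 46 for the large subunit and 4 relatives of ribosomal proteins (Rpl7l1, Rpl22l1, Rpl36al and Rps27l). The rule used no measured value.

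The series measured total RNA from neurites (the outgrown processes) and from soma (the cell bodies) of adult mouse dorsal root ganglion neurons, which are the sensory neurons beside the spinal cord. Its title concerns RNA localization in axons deficient in nucleolin, a nucleolar RNA-binding protein. All 12 libraries came from mice of C57B6 background, with genotype labelled GAR+/+ or GAR+/-; the labels do not spell out what GAR stands for. Each culture was made from the ganglia of 1 adult mouse and grown for 3 days on inserts with pores of 1 µm, and ribosomal RNA was depleted before stranded libraries were made. There were 3 libraries in each of 4 groups: GAR+/+ neurites, GAR+/+ soma, GAR+/- neurites and GAR+/- soma. The dissociated ganglia also hold non-neuronal cells, which the labels do not say were removed from the cultures.

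Most of these proteins are present in a single copy per ribosome, and their mRNAs are usually made and translated in step. Most of these mRNAs begin with a terminal oligopyrimidine (TOP) motif, a C at the capped end followed by an unbroken run of C and T (U in the RNA), through which growth signals acting by way of mTOR and the RNA-binding protein LARP1 control their translation and stability. mRNAs for ribosomal proteins are among the transcripts found repeatedly in axons and dendrites, far from the nucleolus where most ribosome assembly takes place. The genes also host many small nucleolar RNA (snoRNA) genes in their introns and have given rise to many processed pseudogenes.

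The bases around the annotated start show how far the TOP motif can be read from the annotation for the genes that the results turn on. RefSeq promoter sequences of build GRCm38.p6 were matched for 61 of the 81 genes, and each window below runs from 10 bases before to 20 bases from the annotated start, which is the base at position 11. Capitals mark the run of C and T that covers the annotated start, where there is one. The first 6 windows belong to genes higher in neurites in both genotypes. The last 3 belong to genes with a long run that did not pass the gene-level test in either genotype. Of these, Rps6 had a coding transcript that passed on its own in GAR+/+, as given below, and Rps27 had only 745 counts over all libraries. The windows are examples and do not compare runs with changes.
Rps24, chr14:24490668-24490697, plus strand: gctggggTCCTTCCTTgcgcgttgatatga
Rpl39, chrX:37085203-37085232, minus strand: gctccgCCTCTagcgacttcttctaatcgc
Rps3a1, chr3:86142649-86142678, minus strand: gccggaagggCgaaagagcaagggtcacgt
Rps4x, chrX:102189372-102189401, minus strand: gctgggcggagcaacccaggctccagcgcg
Rps26, chr10:128626487-128626516, minus strand: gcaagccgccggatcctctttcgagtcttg
Rpl14, chr9:120571507-120571536, plus strand: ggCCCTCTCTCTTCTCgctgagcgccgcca
Rps6, chr4:86857348-86857377, minus strand: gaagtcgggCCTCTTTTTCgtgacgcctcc
Rpl15, chr14:18270967-18270996, minus strand: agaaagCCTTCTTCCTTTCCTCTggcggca
Rps27, chr3:90213629-90213658, minus strand: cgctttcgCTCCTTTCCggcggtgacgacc

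A C at the annotated start followed by at least 4 further C or T was present in 13 of the 61 genes (21.3%), against 813 of 27025 mouse genes (3.01%). Where a gene had several annotated starts, the one with the longest such tract was used, in both sets and for the windows above. Over all annotated starts the shares were 18.1% of 72 and 2.51% of 32851. A run of at least 5 C or T anywhere over the annotated start was present in 32.8% of the 61 and 11.5% of all genes. Of the genes past the threshold in either genotype that had a window, Rpl14 was the one with the C and tract exactly at the annotated start. In Rps24 the run of 9 bases began before the annotated start and ended at position 16 of the window. The 13 genes with the tract had a median log2 fold change, neurites over soma, of 0.09 in GAR+/+ and 0.16 in GAR+/-, with 1 past the threshold in each. The other 48 had medians of 0.15 and 0.27, with 9 past the threshold in each. The shares called higher over all genes tested were 2.41% in GAR+/+ and 0.544% in GAR+/-. The 13 summed to 412 to 497 CPM (defined below) in GAR+/+ soma and the 48 to 3391 to 4045, so they differ in level too. Change went with level, as given below, and the part of the tract was not tested. In the 300 bases around the start, searched on both strands, CCGGAAG occurred in 41.0% of the 61 genes and 9.08% of all genes, and TATAAA in 11.5% and 14.2%. AAGATGGCG occurred in 6.56% against 1.49%. These are matches of letters at annotated starts, which may differ from the starts used in these neurons.

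The libraries held between 14965973 and 32434916 counts on named and unnamed transcripts, so that 0 counts would allow up to 0.0931 to 0.202 CPM (counts per 1000000 counts, the scale of every level below, with library sizes scaled by the TMM method). All 81 genes passed the filter on low counts, among 15990 genes tested with edgeR's quasi-likelihood test (p-values adjusted by Benjamini-Hochberg over all genes, threshold 0.05). Markers of neurons (11 of 11 tested) summed to 12683 to 14753 CPM in GAR+/+ soma, 9444 to 12627 in GAR+/+ neurites, 13910 to 17055 in GAR+/- soma and 11580 to 14766 in GAR+/- neurites. In GAR+/+, 2 neuron markers were lower in neurites (Rbfox3 and Uchl1) and 2 of 7 Schwann cell markers were higher (Prx and Sox10). Schwann cell markers summed to 906 to 960.2 CPM in GAR+/+ soma, 895 to 993 in GAR+/+ neurites, 775 to 913 in GAR+/- soma and 826 to 867 in GAR+/- neurites. None of 7 proliferation, 6 satellite glia and 7 fibroblast markers passed in either genotype, with proliferation sums of 477 to 699 CPM in GAR+/+ soma, 598 to 1067 in GAR+/+ neurites, 194 to 279 in GAR+/- soma and 265 to 502 in GAR+/- neurites. The leukocyte markers Ptprc, Csf1r, Aif1 and Itgam did not pass the low-count filter, and 0 of the 3 other leukocyte and 3 endothelial markers passed the test. Of 7 long RNAs kept in the nucleus, Rian was lower in GAR+/+ neurites and the others did not pass. They summed to 8131 to 10714 CPM in GAR+/+ soma and 6286 to 10196 in GAR+/+ neurites, which overlapped. In GAR+/- the sums were 8287 to 9230 CPM in soma and 4860 to 10157 in neurites, again with overlap. How much RNA of nuclei or cell bodies the neurite libraries hold was not tested. The part of these cell types in the results below was not tested, and in bulk RNA fewer cells of a type and less RNA per cell cannot be told apart. The ratio of pseudogene counts to Rplp0 counts set the GAR+/- libraries numbered 1 and 3 apart from the GAR+/- libraries numbered 2 and from all GAR+/+ libraries, as described with Rplp0.

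Ribosomal protein genes made up a larger share of the counts in every neurite library than in any soma library. The share was 0.853%, 0.845% and 0.849% in the 3 GAR+/+ neurite libraries and 0.762%, 0.597% and 0.690% in GAR+/+ soma. It was 0.819%, 0.786% and 1.01% in GAR+/- neurites and 0.691%, 0.619% and 0.586% in GAR+/- soma. The lowest neurite value, in GAR+/- neurites 2, lay above the highest soma value, in GAR+/+ soma 1. Both subunits contributed: small-subunit genes summed to 1865 to 2282 CPM in GAR+/+ soma and 2624 to 2781 in GAR+/+ neurites, and large-subunit genes to 4058 to 4913 and 5750.5 to 6095. The 4 relatives summed to 163 to 182 CPM in GAR+/+ soma and 168 to 215 in GAR+/+ neurites, which overlapped.

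In GAR+/+ cultures, 12 of the 81 genes were higher in neurites and 0 were lower. Over all genes tested, 3.10% were called in this comparison, 2.41% higher and 0.688% lower. The median log2 fold change of the 81 was 0.14, against 0.006 over all genes, and 60 of the 81 lay above 0. The 3 neurite libraries lay entirely above the 3 soma libraries for 27 of the 81 and entirely below for 0, against 12.4% and 9.96% of all genes. In GAR+/- cultures, 13 were higher in neurites and 0 were lower, where 0.638% of all genes were called, 0.544% higher and 0.0938% lower. The median was 0.24, against −0.005 over all genes, with 65 of 81 above 0. Neurites lay entirely above soma for 35 genes and entirely below for 1 (Rps13), against 11.7% and 10.6% of all genes.

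These counts changed when libraries were left out. The GAR+/+ count of 12 became 4 and 7 without GAR+/+ neurites 1 or 3, 5, 1 and 3 without GAR+/+ soma 1, 2 or 3, 6 without any 1 of the GAR+/- soma libraries, and 0 when only the 6 GAR+/+ libraries were fitted. The GAR+/- count of 13 became 0 without GAR+/- neurites 1 or any 1 of the GAR+/- soma libraries, 1 without GAR+/- neurites 3, 5 without GAR+/+ neurites 3, 4 without GAR+/+ soma 3, and 7 with only the 6 GAR+/- libraries. Not every omission lowered a count. The GAR+/- count was 14 without GAR+/- neurites 2, and the GAR+/+ count reached 16 at most with 1 library left out. With the replicate number as a block over all 12 libraries, 18 of 81 passed in GAR+/+, where 9.44% of all genes did. This block gives each number the same effect in all 4 groups. The numbers paired neurites with soma in GAR+/+ but not throughout GAR+/-, so it is not a paired test of GAR+/+ alone.

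Of the genes past the threshold, 10 were shared, among them Rps24, Rps3a1, Rps26, Rps4x, Rps3, Rps15, Rpl39, Rpl8 and Rpl14. These 10 are 83.3% of the calls in GAR+/+ and 76.9% of those in GAR+/-. Rpl36a and Rpl4 passed in GAR+/+ alone, and Rpl13a, Rpl32 and Rps25 in GAR+/- alone; none of these 5 differed between genotypes in the test of that difference. The 2 comparisons share no library, but both come from 1 fit with the spread estimated over all 12 libraries. Same-numbered soma libraries of the 2 genotypes also correlated (0.41, 0.52 and 0.23), so the comparisons are not independent. Across the 81 genes the changes in the 2 genotypes had a Pearson correlation of 0.80 and a Spearman correlation of 0.78, and across all genes tested 0.50 and 0.58, as descriptions over genes of the same libraries.

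**Figure D1:**
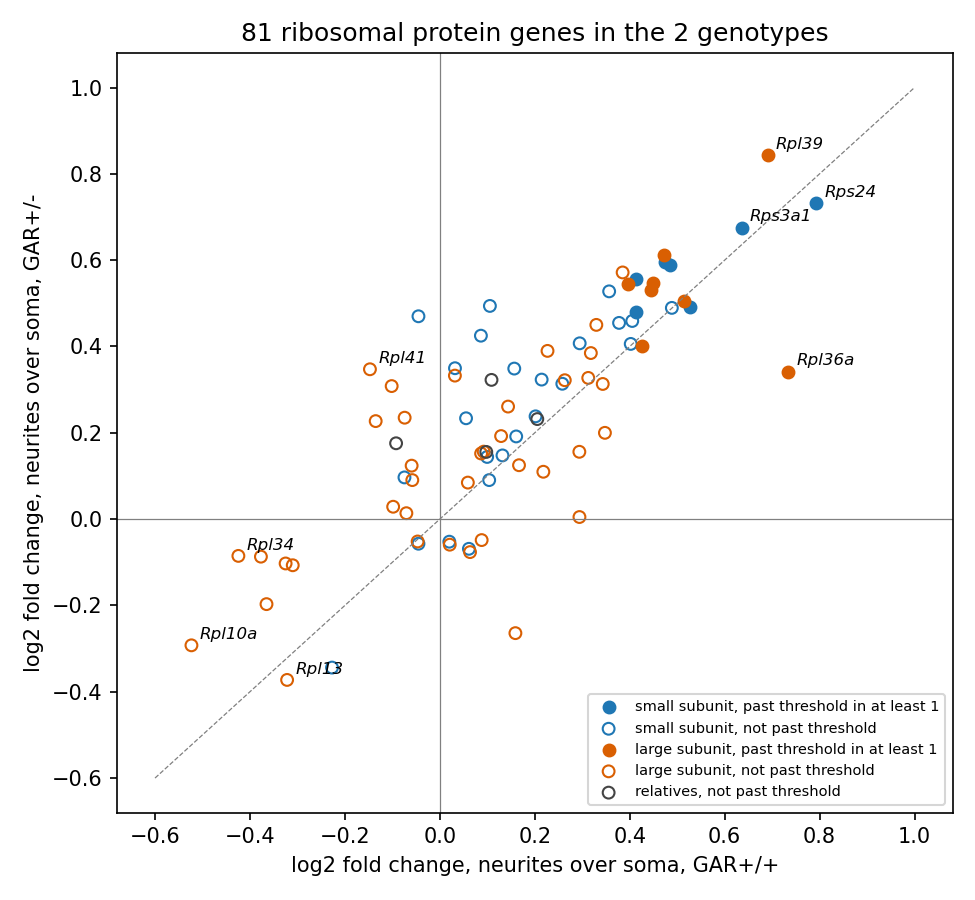
Log2 fold change, neurites over soma, in GAR+/+ (x axis) and GAR+/- (y axis) for the 81 ribosomal protein genes, coloured by subunit, filled where past the threshold in at least 1 genotype. The 15 filled points all lie above 0 on both axes, and the open points reach down to −0.52 in GAR+/+ and −0.37 in GAR+/-.

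Of the 31 small-subunit genes, 6 rose in GAR+/+ neurites and 7 in GAR+/- neurites, with median log2 fold changes of 0.20 and 0.41. Rps24 (chr14:24487125-24496959, plus strand), whose product takes part in small-subunit rRNA maturation, had the highest change of the 81 in GAR+/+ (gene positions are those of GENCODE M21 on GRCm38). Its level was 72.8, 76.1 and 61.8 CPM in GAR+/+ neurites and 41.0, 34.2 and 46.3 in GAR+/+ soma. It was 62.7, 56.0 and 63.6 CPM in GAR+/- neurites and 39.3, 36.4 and 33.9 in GAR+/- soma. Every neurite library lay above every soma library of either genotype. The log2 fold change was 0.79 ± 0.12 (SE, n = 3 against 3; 1.73-fold, adjusted p = 0.0051) in GAR+/+ and 0.73 ± 0.12 (1.66-fold, adjusted p = 0.0215) in GAR+/-. Rps24 was the only gene of the 81 past the threshold in GAR+/+ whichever 1 of the 12 libraries was left out.

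Rps3a1 (chr3:86137940-86142702, minus strand), which encodes a protein on the solvent side of the small subunit near the mRNA exit, was higher in neurites in both genotypes. Its level was 260.5, 275 and 245 CPM in GAR+/+ neurites against 187, 149.6 and 166 in soma, a log2 fold change of 0.64 ± 0.12 (adjusted p = 0.0136). In GAR+/- it was 215, 230.1 and 276 CPM in neurites against 169.7, 149.6 and 132 in soma, a change of 0.68 ± 0.12 (adjusted p = 0.0267). Neurite and soma libraries did not overlap. Rps26 (chr10:128624534-128626747, minus strand), which encodes another protein at the mRNA exit channel, had 236, 243 and 219.9 CPM in GAR+/+ neurites and 183, 156 and 160.3 in soma. In GAR+/- it had 237, 229 and 261 CPM in neurites and 173, 167 and 143 in soma. The 6 neurite libraries again lay above the 6 soma libraries, with changes of 0.48 ± 0.10 (adjusted p = 0.0202) and 0.59 ± 0.10 (adjusted p = 0.0236).

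Rps4x (chrX:102184941-102189394, minus strand), the X-linked member of the Rps4 family, rose by 0.53 ± 0.11 in GAR+/+ (adjusted p = 0.0185) and 0.49 ± 0.11 in GAR+/- (adjusted p = 0.0488). Rps15 (chr10:80292453-80294114, plus strand), at the head of the small subunit, rose by 0.41 ± 0.10 (adjusted p = 0.0346) and 0.48 ± 0.10 (adjusted p = 0.0446). Rps25 (chr9:44407139-44410427, plus strand), known for its role in initiation at viral internal ribosome entry sites, had 100.4, 93.5 and 108 CPM in GAR+/- neurites against 73.6, 64.0 and 68.0 in soma and rose by 0.56 ± 0.11 there (adjusted p = 0.0449). In GAR+/+ its change was 0.41 ± 0.11, with adjusted p = 0.0601, and adjusted p = 0.0168 with the replicate block. The block brought 5 further genes past the threshold in GAR+/+, among them Rps6, Rps9 (0.41 ± 0.11, adjusted p = 0.0243), Rpl13a and Rpl32.

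Rps3 (chr7:99477896-99483738, minus strand), which encodes a protein at the mRNA entry channel, passed through transcripts annotated as retained introns. The gene rose by 0.47 ± 0.11 in GAR+/+ (adjusted p = 0.0291) and 0.59 ± 0.11 in GAR+/- (adjusted p = 0.0274), from 192, 181 and 191 CPM in GAR+/+ soma to 262, 271 and 252 in neurites. Of its counts, 90.8% lay on Rps3-203 (mean 59.3 CPM) and Rps3-204 (147 CPM), and an exon of Rps3-204 contains the snoRNA gene Snord15b. The coding transcript Rps3-201 (20.6 CPM) had changes of −0.01 ± 0.14 in GAR+/+ and 0.26 ± 0.14 in GAR+/-, neither past the threshold.

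Of the small-subunit genes below the threshold in both genotypes, 3 have well-known roles apart from the others. Rps6 encodes the ribosomal substrate of the S6 kinases, which act after mTOR. It had 24.5, 21.3 and 19.4 CPM in GAR+/+ neurites against 17.0, 15.2 and 17.0 in soma, without overlap, and a change of 0.40 ± 0.13 (adjusted p = 0.105, and 0.0403 with the replicate block). In GAR+/- the change was 0.41 ± 0.13 (adjusted p = 0.168). Rpsa, which encodes the laminin-receptor protein of the small subunit, had 455, 566 and 502 CPM in GAR+/+ neurites and 470.2, 330.1 and 389.6 in soma, with GAR+/+ soma 1 inside the neurite range. Its changes were 0.36 ± 0.14 (adjusted p = 0.185) in GAR+/+ and 0.53 ± 0.14 (adjusted p = 0.114) in GAR+/-. Rps27a, which encodes ubiquitin fused to a ribosomal protein, stayed within the spread, at 6.30, 3.97 and 5.91 CPM in GAR+/+ neurites and 5.31, 4.14 and 6.59 in soma, with changes of 0.02 ± 0.22 (adjusted p = 0.973) and −0.05 ± 0.22 (adjusted p = 0.946).

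**Figure D2:**
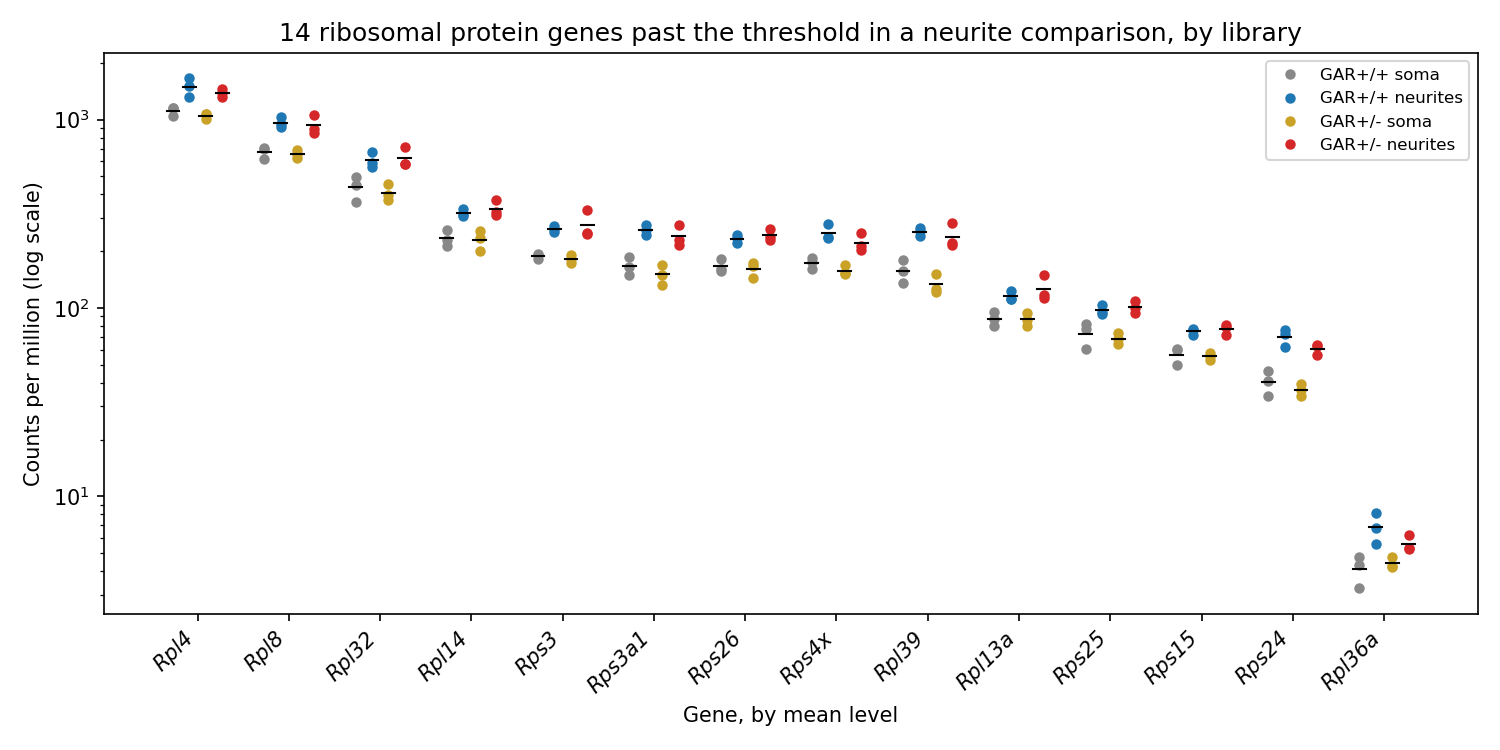
Level in CPM (log axis) in each of the 12 libraries for 14 of the 15 ribosomal protein genes past the threshold in either genotype, 3 points per group with a line at the mean. For Rps24, Rpl39, Rps3a1 and Rps26 the neurite points of both genotypes sit above all soma points.

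Of the 46 large-subunit genes, 6 rose in neurites in each genotype, with median log2 fold changes of 0.11 and 0.17. Rpl39 (chrX:37082520-37085402, minus strand), whose small product lines the nascent-peptide exit tunnel, had the highest change of the 81 in GAR+/-. It had 241, 264 and 257 CPM in GAR+/+ neurites and 179, 136 and 157 in soma, a change of 0.69 ± 0.13 (1.61-fold, adjusted p = 0.0124). It had 215, 220.1 and 281 CPM in GAR+/- neurites and 152, 122 and 125 in soma, a change of 0.84 ± 0.13 (1.79-fold, adjusted p = 0.0205). All 6 neurite libraries lay above all 6 soma libraries.

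Rpl8 (chr15:76904078-76906314, plus strand), which encodes a protein beside the peptidyl transferase centre, had 1034, 949 and 909 CPM in GAR+/+ neurites and 710.2, 614 and 699 in soma. In GAR+/- it had 889, 846 and 1061 CPM in neurites and 686, 628 and 655 in soma. The groups did not overlap, and the changes were 0.52 ± 0.11 (adjusted p = 0.0216) and 0.51 ± 0.11 (adjusted p = 0.0488). Rpl14 (chr9:120571444-120574654, plus strand), a large-subunit surface protein gene and the one with a TOP-like start among those that rose, changed by 0.45 ± 0.11 (adjusted p = 0.0438) and 0.55 ± 0.11 (adjusted p = 0.0468).

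Rpl4 (chr9:64173375-64178666, plus strand), whose product reaches into the exit tunnel, had the most counts of the 81. It had 1651, 1515 and 1319 CPM in GAR+/+ neurites against 1145, 1045 and 1148 in soma, a change of 0.43 ± 0.10 (adjusted p = 0.0388). In GAR+/- the libraries also did not overlap, and its change was 0.40 ± 0.10 (adjusted p = 0.0975). Rpl36a (chrX:134585654-134588062, plus strand), which encodes a protein near the tRNA exit site, was scarce, with 8.19, 5.58 and 6.77 CPM in GAR+/+ neurites and 4.77, 3.25 and 4.32 in soma. It rose by 0.73 ± 0.19 in GAR+/+ (adjusted p = 0.0498), and its value in GAR+/- was 0.34 ± 0.19 (adjusted p = 0.44).

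Rpl32 (chr6:115805505-115808747, minus strand), a large-subunit gene often used as a reference for expression, had 581, 577 and 715 CPM in GAR+/- neurites and 453, 398 and 375 in soma, a change of 0.61 ± 0.13 (adjusted p = 0.0487). In GAR+/+ the change was 0.47 ± 0.13 (adjusted p = 0.0626, and 0.0112 with the replicate block). Rpl13a (chr7:45125558-45128761, minus strand), whose product also takes part in interferon-gamma-induced translational silencing, rose by 0.55 ± 0.11 in GAR+/- (adjusted p = 0.0468), and 98.5% of its counts lay on transcripts absent from the GENCODE M21 annotation. In GAR+/+ its change was 0.40 ± 0.11 (adjusted p = 0.0747, and 0.0307 with the replicate block).

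The P-stalk genes, whose products recruit translation factors to the large subunit, did not pass in either genotype. Rplp0, the base of the stalk, had log2 values for neurites over soma of 0.32 ± 0.13 (adjusted p = 0.203) in GAR+/+ and 0.38 ± 0.13 (adjusted p = 0.212) in GAR+/-. Rplp1 had 686, 902 and 861 CPM in GAR+/+ neurites and 732, 533 and 609 in soma, with GAR+/+ soma 1 above GAR+/+ neurites 1, and a change of 0.39 ± 0.14 (adjusted p = 0.152). In GAR+/- it had 749.7, 773 and 967 CPM in neurites and 620.5, 533 and 521 in soma, without overlap, and a change of 0.57 ± 0.14 (adjusted p = 0.0887). Rplp2 had a mean of 17.9 CPM over the 12 libraries and values of 0.22 ± 0.13 (adjusted p = 0.386) and 0.11 ± 0.13 (adjusted p = 0.774).

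The 4 relatives, which resemble a ribosomal protein without being its main gene, had no call. Rpl7l1, which encodes a ribosome assembly factor, had the highest mean level of the 4 at 135 CPM and changes of 0.10 ± 0.11 and 0.16 ± 0.11. Rpl22l1, the paralog of Rpl22 (mean 23.9 CPM), had 0.21 ± 0.13 and 0.23 ± 0.13. Rpl36al, the paralog of Rpl36a (18.4 CPM), had 0.11 ± 0.14 and 0.32 ± 0.14, and Rps27l, the p53-responsive paralog of Rps27 (2.15 CPM), had −0.09 ± 0.25 and 0.18 ± 0.25.

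None of the 81 genes was called lower in neurites in either genotype. The most negative change in GAR+/+ was that of Rpl10a, a large-subunit gene, at −0.52 ± 0.26 (adjusted p = 0.285). It had 6.51, 4.91 and 8.72 CPM in neurites and 13.6, 7.86 and 7.79 in soma, with overlap, and 100% of its counts lay on retained-intron transcripts. In GAR+/- the most negative change was that of Rpl13, another large-subunit gene, at −0.37 ± 0.23 (adjusted p = 0.496).

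The genes that passed were mostly those with many counts. Mean levels ran from 1.20 CPM (Rpl9) to 1261 CPM (Rpl4), with a median of 18.9, and 28 of the 81 lay under 10 CPM. Of the 26 genes with a mean of at least 50 CPM (a limit chosen after the values were seen), 11 rose in GAR+/+ and 13 in GAR+/-, that is 42.3% and 50%. Among all genes at that level 7.34% and 1.84% were called. All 26 had a change above 0 in both genotypes, with medians of 0.41 and 0.50. Of the 55 genes under 50 CPM, 1 and 0 rose, with medians of 0.09 and 0.15, and 34 and 39 lay above 0. The shares called higher over all genes tested, at any level, were 2.41% and 0.544%. At such shares 55 genes would hold few calls or none, so the 1 and 0 say little about these genes. Across the 81 genes, log2 mean level and change had a Pearson correlation of 0.64 in GAR+/+ and 0.65 in GAR+/-, against 0.12 and 0.11 across all genes. Both quantities come from the same libraries.

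**Figure D3:**
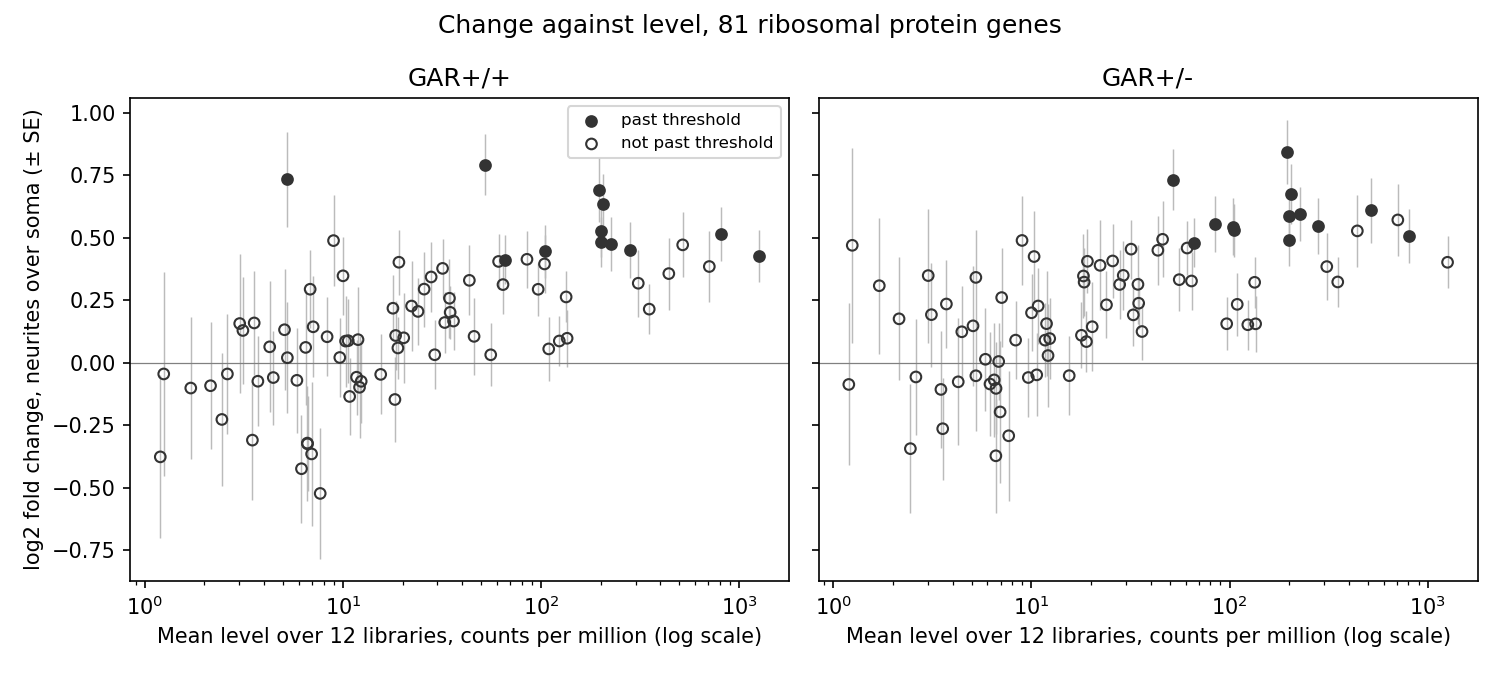
Log2 fold change, neurites over soma, with its SE (y axis) against the mean level over 12 libraries in CPM (x axis, log scale) for the 81 genes, GAR+/+ and GAR+/- in separate panels, filled where past the threshold. Above 50 CPM all 26 points lie above 0 in both panels, and below it points lie on both sides of 0.

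Scaled for transcript length, levels still spread widely among genes whose products are present in like numbers in a ribosome. On a scale of counts per base of annotated transcript, scaled to the same sum in every library, Rplp1 averaged 3184, Rpl32 2256, Rpl8 2126 and Rpl4 1840, and Rpl39 and Rps26 had 721 and 662. The lowest was Rpl9 at 1.60, followed by Rps16 at 2.94. Only transcripts with a GENCODE M21 length entered this scale. Rpl18 therefore had no value, and Rpl13a, at 3.35, entered without most of its counts. For many of the low genes, more counts lay on processed pseudogenes that share long stretches with the mRNA than on the gene itself. In all, 128 pseudogene transcripts with at least 20% of their windows of 50 bases in common with a member were found for 58 of the 81 genes. They held 1686577 counts, beside 2099064 on the genes themselves, or 44.6% of the sum, and between 43.7% and 46.1% in each library.

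In 33 genes the look-alike pseudogenes held more counts than the gene. Rpl24, a large-subunit gene, had 85.9 times as many counts on look-alikes as on itself (379 against 4.27 CPM). Rpl11, whose product binds Mdm2 in ribosomal stress, had 58.2 times as many, and Rpl12, which encodes a protein at the base of the P-stalk, 36.9 times as many (441 against 11.9 CPM). The share of a gene's windows found in no other annotated transcript outside the gene had a median of 47.0% and ran from 1.35% (Rps27) to 100%. How the authors' counting divided reads between a gene and its copies is not given in the sources used here, so a level of a gene with look-alikes is uncertain, and so is its rank. Among the 36 genes with at least 50% unique windows, 8 rose in each genotype, with medians of 0.22 and 0.35. Among the 45 others, 4 and 5 rose, with medians of 0.09 and 0.19. The shares called higher over all genes tested were 2.41% and 0.544%. The 36 also had higher levels, with sums of 4548 to 5428 CPM in GAR+/+ soma against 1539 to 1949 for the 45. Log2 mean level and the share of unique windows had a Pearson correlation of 0.45. The parts of level and of unique windows in this difference were not tested.

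**Figure D4:**
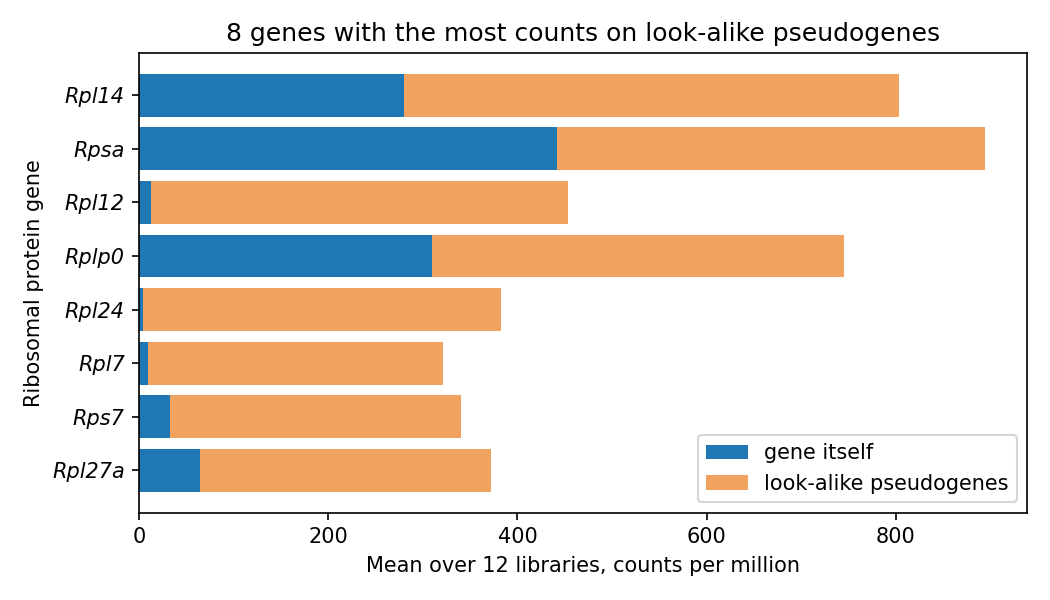
Mean CPM over 12 libraries on the gene itself and on its look-alike pseudogenes, stacked, for the 8 ribosomal protein genes with the most look-alike counts. Rpl12 and Rpl24 consist almost wholly of look-alike counts, and Rpl14 has 524 CPM on look-alikes beside 279.8 on the gene.

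When the look-alike counts were added to each gene, an alternative chosen after the data were seen, 18 of 81 rose in GAR+/+ and 16 in GAR+/-, and 0 fell. Over all genes in that fit 3.07% and 0.472% were called. The medians were 0.28 and 0.39, with 68 and 72 of 81 above 0, and 42 genes had a mean of at least 50 CPM. With the replicate block 31 of these sums passed in GAR+/+, where 9.44% of genes did. Of the 12 genes past the threshold in GAR+/+ without look-alikes, 11 were kept and Rps15 was lost (7 were gained), with 0.41 before and 0.34 after (adjusted p = 0.0536). Of the 13 in GAR+/-, 10 were kept and Rpl13a, Rpl32 and Rpl8 were lost (6 were gained). Rpl32 and Rpl8 have 0 look-alike counts, and their log2 fold changes were 0.61 and 0.51 in both fits, with adjusted p of 0.0487 and 0.0488 before and 0.0514 for each after. Rpl13a had 0.55 before and 0.54 after (adjusted p = 0.0519). Rpl23a, whose product docks the signal recognition particle at the tunnel exit, was gained in both: its sum was 133, 162 and 119.5 CPM in GAR+/+ neurites and 86.6, 72.7 and 84.4 in soma. Its change was 0.77 ± 0.13 (adjusted p = 0.00582), and in GAR+/- 0.72 ± 0.13 (adjusted p = 0.0307). Rpl27a, a large-subunit gene, was gained in both too, at 464, 424 and 411 CPM in GAR+/+ neurites against 319, 289.6 and 320.1 in soma (0.48 ± 0.10, adjusted p = 0.0222). In GAR+/- its change was 0.57 ± 0.10 (adjusted p = 0.0307).

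At the level of transcripts, 252 belonged to the 81 genes, of which 123 were annotated as protein coding, 84 as retained introns and 31 as processed transcripts. Of the 244 tested, 16 rose in GAR+/+ neurites and 0 fell, where 1.58% of 29102 transcripts were called. In GAR+/- 16 rose and 0 fell, where 0.512% were called. The protein-coding class held most calls, 11 of 118 in GAR+/+ (9.32%) and 12 of 118 in GAR+/- (10.2%), with medians of 0.19 and 0.27. Of all protein-coding transcripts tested, 2.26% and 0.654% were called. In the retained-intron class, 3 of 82 rose in each genotype (3.66%), with medians of 0.06 and −0.10. Of all retained-intron transcripts tested, 0.424% and 0.136% were called. Retained-intron transcripts took 4.88% to 6.02% of the counts of the 81 genes in each library, against 1.41% to 1.78% in other genes. A snoRNA gene lay in an exon of 13 of the 82, which together held 42.4% of the retained-intron level in CPM, largely through Rps3-204.

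The transcripts with the highest changes in GAR+/+ were Rpl36a-201 (log2 fold change 1.00 ± 0.25, adjusted p = 0.0448), Rpl22-207 (0.93 ± 0.19, adjusted p = 0.0162) and Rps24-202 (0.83 ± 0.14, adjusted p = 0.00291). Rps6-201 (0.77 ± 0.17, adjusted p = 0.0213), the retained-intron transcript Rps4x-203 (0.76 ± 0.19, adjusted p = 0.0457) and Rpl39-201 (0.70 ± 0.13, adjusted p = 0.00796) followed. Rpl22-207, a processed transcript of a large-subunit gene, had 10.3, 9.0 and 7.48 CPM in neurites and 5.09, 4.03 and 4.86 in soma. In GAR+/- the retained-intron transcript Rps18-204, from a small-subunit gene, changed by 1.46 ± 0.31 (adjusted p = 0.0356) at a mean of 1.65 CPM. After it came Rpl39-201 (0.88 ± 0.13), a transcript of Rpl13a that is absent from M21 (0.81 ± 0.14), Rps24-201 (0.76 ± 0.15), Rps24-202 (0.76 ± 0.14) and Rps3a1-201 (0.70 ± 0.12).

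Rps6 was the gene whose transcripts differed most from each other in GAR+/+. The coding transcript Rps6-201 had 19.5, 17.1 and 13.4 CPM in neurites and 10.4, 9.69 and 9.04 in soma. The processed transcript Rps6-204 had 2.73, 3.18 and 3.47 CPM in neurites and 4.75, 4.53 and 6.64 in soma, so that the first was higher and the second lower in neurites, both without overlap. The test of transcript usage (edgeR's diffSpliceDGE, 5916 genes, 55 of them ribosomal protein genes) called 0 of the 55 in either genotype, with 9 and 14 at an unadjusted p under 0.05, where 0.0169% and 0% of all genes were called. DESeq2 was not run on usage. For Rps6 the adjusted p was 0.0656 in GAR+/+, the smallest of the 55. With the replicate block, 2 of the 55 passed in GAR+/+, Rps6 (adjusted p = 0.00491) and Rpl22 (adjusted p = 0.0451), where 0.304% of genes did. With that block 24 member transcripts passed in GAR+/+, where 4.91% of all transcripts did, 22 higher and 2 lower: Rps6-204 (−0.76 ± 0.21, adjusted p = 0.0387) and the retained-intron transcript Rpl10a-205 (−1.82 ± 0.53, adjusted p = 0.0475).

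Between genotypes no ribosomal protein gene passed. In soma 0 of 81 were called with edgeR (1 at an unadjusted p under 0.05) and 0 with DESeq2 (2 unadjusted), where 0% of all genes were called. The median log2 fold change, GAR+/- over GAR+/+, was −0.05, with a range of −0.43 to 0.32 and 27 of 81 above 0. In neurites 0 of 81 were called with edgeR (2 unadjusted) and 0 with DESeq2 (3 unadjusted), where 3.27% of all genes were called, 79 higher and 444 lower. The median was 0.04, with a range of −0.32 to 0.44 and 48 above 0. The difference between the genotypes in the neurite-over-soma change was called for 0 genes with either tool (0 unadjusted in both), where 0% of all genes were called, and its median over the 81 was 0.07. Of the 244 transcripts, 0 were called between genotypes in soma or in neurites with edgeR, where 0.0653% and 1.60% of all transcripts were, and 0 for the difference, where 0% were. Beside these values, 5 of 7 proliferation, 3 of 7 Schwann cell and 2 of 6 satellite glia markers were lower and 1 neuron marker higher in GAR+/- than GAR+/+ neurites, and their part was not tested.

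The genes with the smallest p in soma were Rplp0 (−0.39 ± 0.13, adjusted p = 0.326), Rpl30 (−0.43 ± 0.20) and Rpl22l1 (−0.26 ± 0.13) below 0, and Rpl24 (0.32 ± 0.25), Rpl36 (0.14 ± 0.12) and Rplp2 (0.14 ± 0.13) above it. In neurites they were Rplp0 (−0.32 ± 0.13, adjusted p = 0.189), Rpl22l1 (−0.24 ± 0.14) and Rps24 (−0.21 ± 0.12) below 0, and Rpl41 (0.44 ± 0.17, adjusted p = 0.16), Rpl7a (0.40 ± 0.19) and Rpl18 (0.30 ± 0.15) above it. For the difference of the neurite-over-soma changes, Rpl41, which encodes the smallest ribosomal protein, had the highest value among those with the smallest p, 0.49 ± 0.24. It had 16, 12.6 and 19.8 CPM in GAR+/+ neurites, 16.7, 19.4 and 17.6 in GAR+/+ soma, 19.3, 19.7 and 26.8 in GAR+/- neurites and 17.9, 18.8 and 15.0 in GAR+/- soma. Its GAR+/- neurite libraries lay above the GAR+/- soma libraries, and the other pairs of groups overlapped. GAR+/- soma lay entirely above GAR+/+ soma for 2 of the 81 genes (Rpl24 and Rpl36) and entirely below for 4 (Rplp0, Rpl30, Rpl6 and Rps9), against 8.86% and 11.9% of all genes. In neurites these numbers were 0 and 1 (Rplp0), against 7.53% and 10.8%.

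Rplp0 (chr5:115559467-115563727, plus strand) was thus lower in all 3 GAR+/- libraries of each compartment, at 242, 257 and 209.8 CPM in GAR+/- soma against 349, 261 and 316 in GAR+/+ soma. In neurites it had 257, 325 and 343 CPM in GAR+/- against 348, 429 and 379 in GAR+/+. Counts on its pseudogenes Gm8730 and Gm9625, which are copies of its mRNA, stood in 2 different ratios to those on the gene. The ratio of Gm8730 to Rplp0 lay between 0.499 and 0.548 in all 6 GAR+/+ libraries and was 0.521 in GAR+/- neurites 2 and 0.556 in GAR+/- soma 2. In the other 4 GAR+/- libraries it was 1.28 (neurites 1), 1.23 (neurites 3), 1.25 (soma 1) and 1.25 (soma 3). The ratio of Gm9625 to Rplp0 split the libraries in the same way, at 0.567 to 0.626 against 0.865 to 0.909. The libraries numbered 2 of GAR+/- thus had the ratio of GAR+/+ libraries in both compartments. The GAR+/- group was therefore not uniform in these counts, and whether its animals match their labelled genotype and C57B6 background was not tested, so the genotype comparisons rest on the labels. Without the GAR+/- library numbered 2 of the compartment, the change of Rplp0 between genotypes was −0.45 in soma and −0.36 in neurites, and 0 of the 81 genes passed in either.

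When the counts of the look-alikes were added to Rplp0, the sums overlapped between genotypes. The change of the sum, GAR+/- over GAR+/+, was −0.01 ± 0.17 (adjusted p = 0.989) in soma and 0.09 ± 0.17 (adjusted p = 0.802) in neurites. The authors' deposited table of their own comparison lists 2 of 261 ribosomal protein transcripts below an FDR of 0.05 in soma, both lower in GAR+/-: Rplp0-201 (log2 fold change −0.37, FDR 0.0386) and the retained-intron transcript Rpl30-203 (−0.65, FDR 0.00205). Over all transcripts of that deposited table the share is 4.24%. For neurites the authors' deposited table lists 1 of 255, the retained-intron transcript Rplp0-203 (−1.55, FDR 0.0238), where the share over all transcripts is 3.02%.

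**Figure D5:**
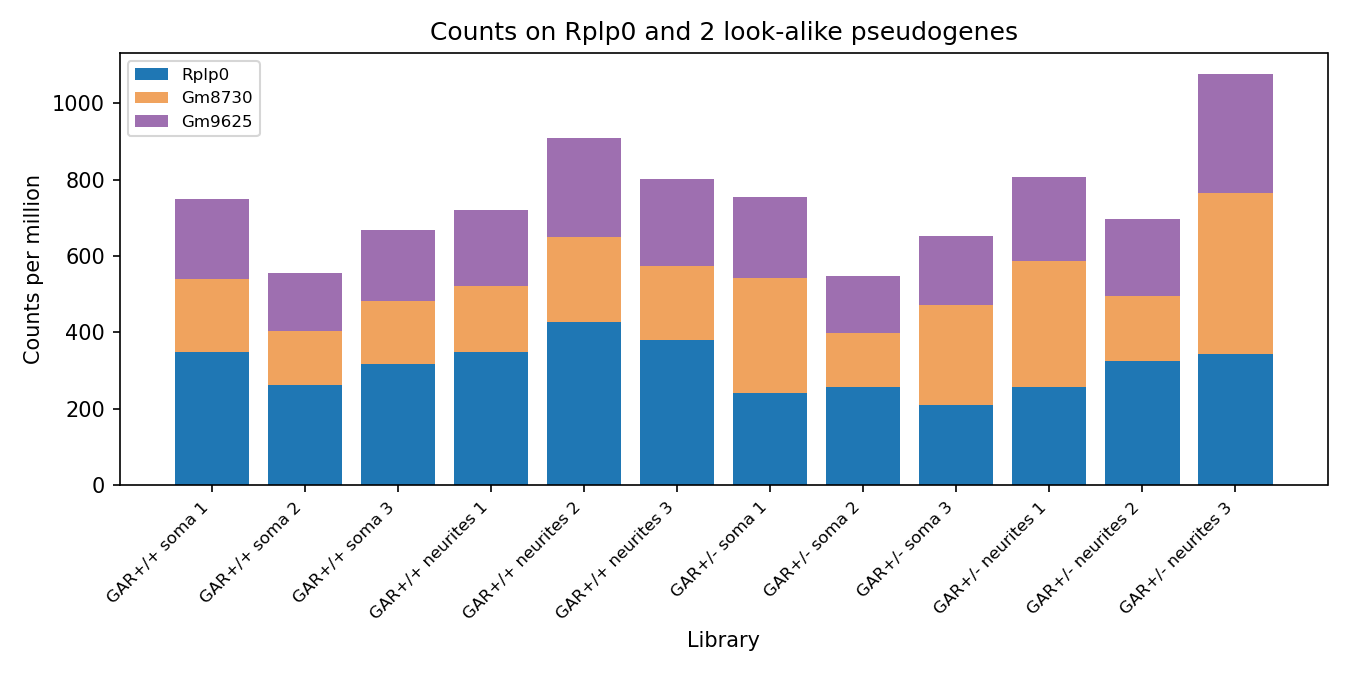
CPM on Rplp0 and on the look-alike pseudogenes Gm8730 and Gm9625, stacked, in each of the 12 libraries. In GAR+/- libraries 1 and 3 of both compartments the Gm8730 segment is larger than the Rplp0 segment, and in the other 8 libraries it is smaller than the Gm9625 segment.

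Beyond the ribosomal protein genes, other genes of the same translational programme were measured too. Of 23 further mRNAs with a TOP motif, which encode mostly translation factors, 3 rose in GAR+/+ neurites and 1 in GAR+/-. Their medians were 0.23 and 0.14. Over all genes tested, 2.41% were called higher in GAR+/+ neurites and 0.544% in GAR+/- neurites. Pabpc1, the cytoplasmic poly(A)-binding protein gene, rose by 0.65 ± 0.10 (adjusted p = 0.00523) in GAR+/+ and by 0.49 ± 0.10 (adjusted p = 0.0468) in GAR+/-. Eif3a, a subunit gene of initiation factor 3, rose by 0.74 ± 0.12 in GAR+/+, and Nap1l1, a histone chaperone gene, by 0.64 ± 0.10 (adjusted p = 0.00528 for each). In either genotype, 0 were called of 14 regulators and binders of TOP mRNAs and of 5 non-coding snoRNA host genes tested. The same held for 3 further ribosomal protein genes whose names have another form. In that order, the medians of these lists in GAR+/+ were −0.04, −0.09 and 0.12. At the shares over all genes, lists this short would hold few calls or none, so the 0 says little about their genes. Of 8 tested chaperones and assembly factors of ribosomal proteins, only Nap1l1, which stands on both lists, rose in GAR+/+. Of the 81 genes, 30 host a snoRNA gene, of which 5 and 6 rose in the 2 genotypes, beside 7 and 7 of the 51 that host none.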

How the data were processed

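Total RNA of neurites and soma was sequenced in 12 libraries, 3 per group. The authors deposited 2 tables of their own comparisons with raw counts per transcript, 1 per compartment, and the deposited log2 fold changes and p-values of those tables were used only where they are named as the authors'. The submitters' processing notes name CASAVA 1.8.2, edgeR and the builds mm10 and GRCm38. The aligner, the counting program, its strand setting and its treatment of reads that match several places remain not given in the sources used here, so overlapping genes and copies may share reads. The deposited tables list no transcript with fewer than 3 libraries of that compartment reaching 5 counts. A further 24 columns of per-sample values were not used. Transcripts with no gene name held 0.574% to 0.694% of the counts of a library.

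Counts of the transcripts in both tables were summed per gene and tested with edgeR 4.0.16 (R 4.3.3, limma 3.58.1): filterByExpr, TMM, a robust quasi-likelihood fit of 4 groups over all 12 libraries, and Benjamini-Hochberg adjustment over 15990 genes or 29102 transcripts. Transcript usage was tested with diffSpliceDGE. The biological coefficient of variation was 0.163. The code was tested on simulated data. Tables and figures were made with Python 3.11.15 and pandas 2.3.3. Counts of replicates differed by more than sampling noise (chi-square per degree of freedom 13.3 to 54.9), so none was counted as a duplicate. P-values set each difference against the spread between libraries. The main fit has no term for pairing and treats all 12 libraries as independent.

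The members and gene lists were chosen with earlier results of these data known. In each contrast the text names up to 8 genes past the threshold with the highest and the lowest change, or, where none passed, the 3 with the smallest p in each direction. It also names Rps24, Rpl39, Rps26, Rps27a, Rps6, Rpsa, the P-stalk genes and the relatives, and up to 6 transcripts past the threshold in each direction, and up to 4 members of each other list. Other genes are named by their place in a pattern, which was seen after their values. Some genes that count in the totals are not reported here by name.

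Whether equal replicate numbers pair libraries was checked from their deviations from the group means over 9562 genes. Between GAR+/+ neurites and GAR+/+ soma the correlations of same-numbered libraries were 0.53, 0.60 and 0.39, and between GAR+/+ soma and GAR+/- soma 0.41, 0.52 and 0.23, so the numbers were taken to pair these groups. Alternatives were DESeq2 1.42.0 and its size factors, TMM without the 81 genes, no filter, the replicate block, protein-coding transcripts only, the libraries of each contrast only, each library left out, and the addition of look-alike pseudogenes. A block for each number within each genotype was also fitted, and its counts are not reported here.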

Additional observations from a re-analysis of the deposited data

How the results depend on the processing

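The addition of look-alike pseudogenes was chosen after the data were seen. Between genotypes, 0 of the 81 genes passed under every alternative at gene level. Leaving out 1 library at a time gave 1 to 16 genes, 1 to 16 transcripts, 0 to 2 genes by usage and medians of 0.0833 to 0.258 in GAR+/+. In GAR+/- it gave 0 to 14 genes, 0 to 19 transcripts and medians of 0.171 to 0.310. Between genotypes it gave medians of −0.104 to 0.0104 in soma and −0.0475 to 0.0927 in neurites, with 0 to 1 transcripts in neurites, and −0.0090 to 0.151 for the difference of the changes.

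With only the libraries of the contrast, 0 genes passed in GAR+/+ and 7 in GAR+/-. With the replicate block, 2 genes passed by usage in GAR+/+, 26 transcripts passed in GAR+/- (2.30% of all) and 3 between genotypes in neurites (5.39% of all). In GAR+/- the same-numbered libraries of neurites and soma had correlations of 0.21, 0.50 and −0.21, so the numbers were not taken to pair these groups. The libraries numbered 2 had the value of 0.50 and were also set apart in both compartments by the pseudogene ratios of Rplp0. Not every library correlated best with its own number. With look-alikes added the medians were 0.28 in GAR+/+ and 0.39 in GAR+/-, also with the replicate block, which then gave 31 genes (9.44% of all genes) and 36 genes (4.03%). With protein-coding transcripts only the GAR+/- median was 0.32.

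Some changes near 0 turned sign. Leaving out 1 library at a time, the change ranged in GAR+/+ from −0.0352 (without GAR+/+ neurites 1) to 0.182 for Rpl7l1, from −0.135 (without GAR+/+ soma 2) to 0.194 for Rps27a and from −0.466 to 0.109 (without GAR+/+ neurites 2) for Rps27l, and in GAR+/- from −0.166 to 0.084 for Rps27a. With protein-coding transcripts only, Rps27a was −0.0397 in GAR+/+ and 0.158 in GAR+/-. With that setting, which drops their leading transcripts, Rps3 was −0.0087 in GAR+/+ and Rpl13a −0.281 in GAR+/-. With look-alikes added, the genotype difference in soma was −0.0079 for Rpl24 (−0.0069 with the block) and −0.0296 for Rpl36 (−0.0253 with the block), and in neurites 0.0893 for Rplp0 (0.0652 with the block). The cause of the other differences was not tested. With 3 libraries a group, smaller changes and the genes under 10 CPM are measured with less precision.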
